A study of Mus musculus with 3 samples.

Results

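Reissner's membrane (RM) epithelial cells were examined in 3 single-cell libraries of the mouse cochlea, 1 made at postnatal day 14 (P14) and 2 at P28. RM barcodes were chosen by 2 measured values, the UMIs of Vmo1 and Slc26a7: they were droplet barcodes with 200 to 6000 detected genes, at most 15% of their unique molecular identifiers (UMIs, 1 per captured transcript) from mt- genes, and at least 1 UMI of both genes. The rule gave 721 RM barcodes among 14378 that passed the gene and mt- limits, out of 32657 deposited. At P14, 26 of 1662 passing barcodes were RM barcodes (1.56%, exact binomial 95% interval 1.02 to 2.28). At P28 they were 360 of 5651 in replicate 1 (6.37%, 5.75 to 7.04) and 335 of 7065 in replicate 2 (4.74%, 4.26 to 5.26). All intervals here cover counting error only. The P14 share lay below both P28 shares, but with 1 library at P14 the difference has no replicate check.

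Every library came from C57/B6 mice, for which the labels give no treatment or genetic change, each from 14 cochleae of 7 mice pooled before loading, so a library is 1 sample and its mice cannot be separated. The lower basal turn is thinly covered by these libraries, for which tissue was loosened with collagenase IV and run through 10x Genomics 3′ chemistry. Summed over its deposited barcodes, the P14 library had 10125255 UMIs, against 35485894 for P28 replicate 1 and 37530956 for replicate 2. RM barcodes contributed 86195, 1197159 and 836836 of these, so the P14 values rest on far fewer molecules. Median depth per RM barcode was similar across libraries, at 2584, 2635.5 and 2110 UMIs, beside 2477, 2402 and 2033 UMIs in the other passing barcodes. Median mt- content of RM barcodes was 4.88% at P14, and 9.34% and 10.6% at P28. The libraries shared up to 54 barcode sequences between any 2 of them, and none of the shared sequences was an RM barcode. Below, 3 values in a row stand for the P14 library, P28 replicate 1 and P28 replicate 2, in that order, and levels are CPM, a gene's UMIs per 1000000 UMIs of the summed barcodes; 3′ counting records a transcript once whatever its length.

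Reissner's membrane is the thin partition between the scala media, filled with potassium-rich endolymph, and the scala vestibuli, filled with perilymph. Its epithelial layer faces the endolymph and is joined by tight junctions, while a mesothelial layer faces the perilymph. The epithelial cells are known for absorbing sodium from endolymph through the epithelial sodium channel, driven by a basolateral sodium pump and controlled by glucocorticoids. Vmo1 is named for a protein of the outer vitelline membrane of bird eggs, and Slc26a7 is an anion transporter of the pendrin family.

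The 2 genes of the rule chose the barcodes, so their levels are a description. Vmo1 (chr11:70513516-70514616, minus strand, mm10) stood at 13632, 7413 and 6507 CPM in RM barcodes and 9.12, 66.1 and 57.4 CPM in all other passing barcodes. Slc26a7 (chr4:14502430-14621805, minus strand) stood at 1868, 1377 and 1472 CPM against 1.91, 2.18 and 4.14 CPM. A member held a median of 34, 21 and 13 UMIs of Vmo1 and 3 UMIs of Slc26a7 in each library. Slc26a7 was the tighter part of the rule: 32, 468 and 429 barcodes held Vmo1 alone and 7, 49 and 80 held Slc26a7 alone. Members just inside it, with 1 UMI of each gene, numbered 2, 11 and 9, and their summed Rnase1 level of 14420.6, 2416 and 1109 CPM lay below that of all members, 16729.5, 7028 and 5977 CPM. Just outside it, 2, 44 and 34 barcodes held 10 or more UMIs of Vmo1 and none of Slc26a7, with 16722, 7097 and 7599 CPM of Rnase1 and 1467.5 to 1652 median UMIs at P28. Those barcodes were counted among the others. The barcodes with neither gene, 1597, 4774 and 6221 of them, held at most 25.5 CPM of Rnase1.

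**Figure D1:**
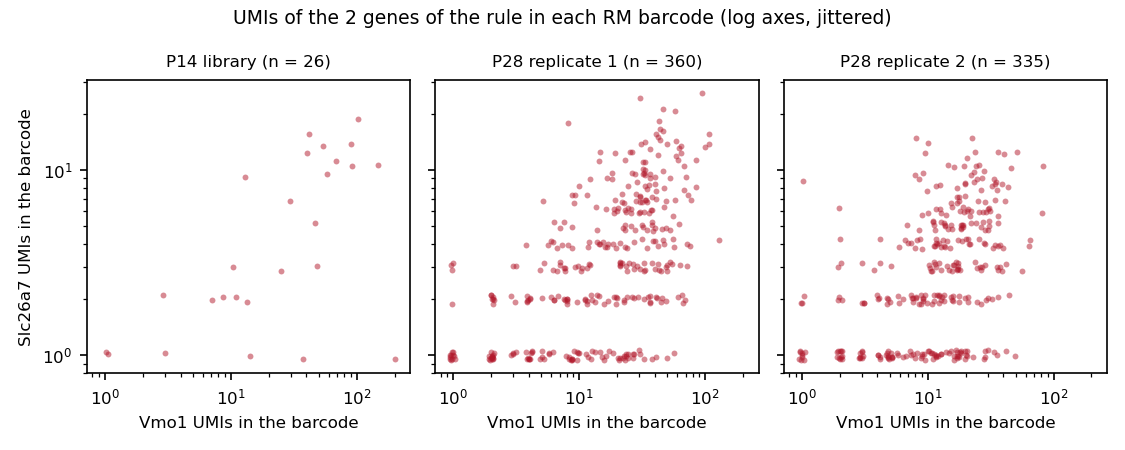
UMIs of Vmo1 (horizontal, log axis) and Slc26a7 (vertical, log axis) in each RM barcode, 1 panel per library, with points jittered by up to 6%. Members extend from 1 UMI of each gene to 201 UMIs of Vmo1 at P14, and most hold under 10 UMIs of Slc26a7.

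The label was checked against genes the rule did not use. Meis2 (chr2:115863064-116065839, minus strand), a homeobox gene and the third marker given for these cells, stood at 220.4, 124 and 112 CPM in RM barcodes against 1.09, 3.72 and 6.1 CPM in the others. The 4 epithelial markers Epcam, Cdh1, Krt8 and Krt18 summed to 1613, 926 and 887 CPM in RM barcodes and to 553, 237 and 227 CPM in the others. At P14 all markers of macrophages, spiral ganglion neurons, granulocytes, pericytes, intermediate cells, bone and the sulcus (Aqp4, Gjb2) were at 0 UMIs in RM barcodes. At P28 they summed to 186 and 35.8 CPM for macrophages and 106 and 197 CPM for spiral ganglion neurons. Granulocyte markers summed to 5.01 and 364 CPM, intermediate cell markers to 51 and 251 CPM and sulcus markers to 122 and 166 CPM. Those of pericytes and of bone summed to 1.67 and 13.1 CPM each. Macrophage markers in replicate 1 were at 62.3% of their level in the other barcodes, and intermediate cell markers at 68.1% and 67.8%. Those of Schwann and satellite glial cells were at 39.5% and 82.9% at P28, and those of pericytes at 9.63% and 87.6%. Some sets were higher in RM barcodes. Marginal cell markers, mostly Kcnq1, summed to 23.2, 16.7 and 33.5 CPM against 1.77, 1.58 and 14.6 CPM. The spindle and root cell marker Slc26a4 stood at 69.6, 128 and 112 CPM against 1.23, 22.4 and 46.8 CPM. Mesothelial markers had 1, 4 and 1 UMIs in RM barcodes. Markers of other cells were present in RM barcodes at both ages. Haemoglobin genes were found in 19 of 26, 238 of 360 and 203 of 335 members and summed to 360, 11308 and 11509 CPM, and at P28 5 members held 97.2% and 82.8% of those UMIs. The fibrocyte and fibroblast markers, led by Otos, summed to 116, 1309 and 2764 CPM, against 2474, 3173 and 4423 CPM in the other barcodes. They were found in 9, 192 and 254 members and reached 10 UMIs in 0, 35 and 55. Outer hair cell markers, led by Ikzf2 at P14 and Ocm at P28, summed to 244, 344 and 534 CPM and were found in 12, 113 and 76 members, with 63.6% and 81.9% of their P28 UMIs in 5 members. Markers of Schwann and satellite glial cells were found in 7, 95 and 90 members. The top 5% of doublet scores took in 0, 26 and 37 members (0%, 7.22% and 11.04%), beside 4.52%, 4.54% and 4.28% of the other barcodes. Without them 1649 of 1752 higher and 2343 of 2501 lower calls of the comparison with all other barcodes below were kept. Of 77 genes named in that comparison, chosen after their stability was seen, none lost a call and Nr3c2 gained a call. The part of free RNA was not tested.

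Compared with all other passing barcodes, genes higher in RM barcodes included homeobox regulators, sodium channel subunits, junction genes and some secreted and membrane proteins. Genes that were lower included gap junction and many matrix genes. UMIs were summed per library for RM and for other barcodes and compared with edgeR's quasi-likelihood test with the library as a block, and p-values were Benjamini-Hochberg adjusted over all genes. The fit covered 13356 genes, and at an adjusted p under 0.05 RM barcodes had 1752 higher (13.1%) and 2501 lower genes (18.7%), with the 2 genes of the rule among the higher ones. The counts were 2456 and 3068 without the P14 library, 550 and 695 without P28 replicate 1, 641 and 964 without P28 replicate 2, and 651 and 368 without the block. In this fit edgeR took the spread from all genes together and gave no weight to a gene's own. Sizes with standard errors (SE) are therefore given ahead of p-values. The SE come from the same test and carry the same borrowed spread.

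The genes that were higher included Rnase1, Crhbp, Dkk2, Lrp2 and Ttr. Rnase1 (chr14:51144998-51146785, minus strand), a secreted ribonuclease, reached 16729.5, 7028 and 5977 CPM in RM barcodes and 26, 87.9 and 82.4 CPM in the others (log2 fold change 7.09 ± 0.44, SE). By mean CPM over the libraries it ranked after Malat1 and ahead of Vmo1, with mt- and ribosomal protein genes left aside. In both P28 libraries the order turned, with Vmo1 above it at 7413 and 6507 CPM. Crhbp (chr13:95431371-95444924, minus strand), which binds corticotropin-releasing hormone, stood at 5615, 1349.9 and 1412 CPM against 10.9, 9.1 and 9.66 CPM (log2 fold change 7.66 ± 0.41). Dkk2, a secreted modulator of Wnt receptors, stood at 3260.1, 1451 and 1350.3 CPM against 6.67, 13 and 20.6 CPM (7.06 ± 0.39). Lrp2 (chr2:69424340-69586065, minus strand), the endocytic receptor megalin, stood at 5139.5, 2067 and 2233 CPM against 15.1, 20.6 and 52.6 CPM (6.67 ± 0.41). For these 4 genes the lowest RM library lay far above the highest other sum, and all were most abundant at P14. Transthyretin (Ttr), a carrier of thyroid hormone and retinol-binding protein, was steadier across ages, at 534, 493 and 428 CPM against 1.36, 5.51 and 5.7 CPM (6.71 ± 0.31).

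Both carnosine dipeptidases stood out. Cndp2, the cytosolic enzyme, stood at 4896, 3776 and 3467 CPM against 34.3, 65.2 and 67.4 CPM (6.10 ± 0.40), and Cndp1, the secreted one, at 371, 303 and 323 CPM against 0.272, 3.55 and 3.29 CPM (6.87 ± 0.28). Membrane proteins among the 15 largest changes included Tmem72 at 626, 384 and 355 CPM (6.98 ± 0.30) and Atp13a5, a P5-type ATPase, at 359.6, 158 and 148 CPM (6.97 ± 0.23). Pi15, a secreted peptidase inhibitor, stood at 92.8, 73.5 and 64.5 CPM (7.04 ± 0.31). Among genes higher than in all other barcodes, the highest fold change was that of Cltrn (collectrin, a partner of amino acid transporters), with 336, 36.8 and 29.9 CPM against 0.136, 0.256 and 0.089 CPM (8.36 ± 0.41). It was found in 9, 31 and 21 members. Its P14 level was above both P28 levels, while the 2 P28 libraries lay close together. Pcdh20, a protocadherin, stood at 522, 331 and 347 CPM against 1.23, 5.51 and 7.12 CPM (6.20 ± 0.28), and Cnmd (chondromodulin) at 5314, 2200.2 and 2016 CPM against 379, 119 and 115 CPM (3.93 ± 0.36). Of the leading group, the transcripts A930003A15Rik, 1810028F09Rik and E330013P04Rik have no named product and reached 580.1, 338 and 281, 743, 322 and 264 and 278, 283 and 255 CPM in turn.

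**Figure D2:**
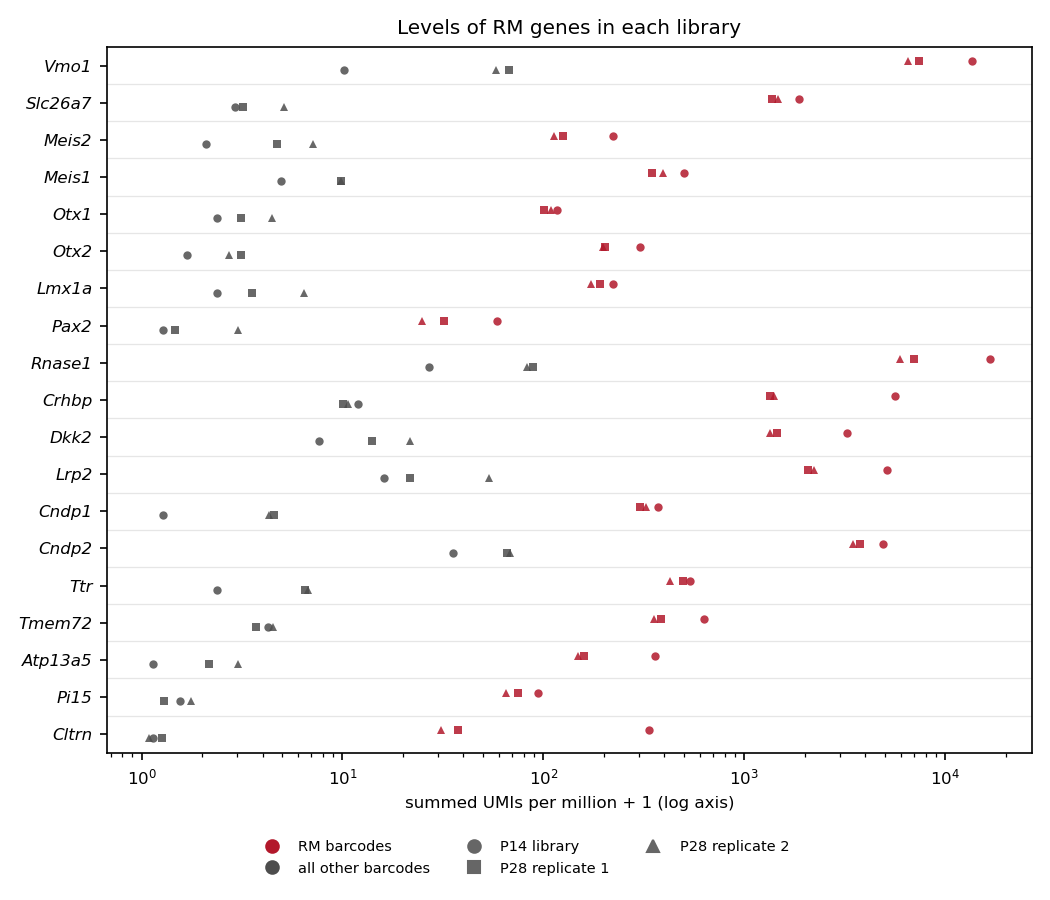
Summed CPM plus 1 (horizontal, log axis) of 19 genes in RM barcodes (red) and all other barcodes (grey), with 1 symbol per library. For each gene shown the 3 RM values lie to the right of the 3 other values, and Vmo1 and Slc26a7 were used to choose the barcodes.

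Shares of barcodes with a UMI were compared at a common depth of 1000 UMIs, which left out 6, 25 and 24 members. Rnase1 was then found in 95, 92.5 and 93.6% of RM barcodes, Lrp2 in 95, 78.5 and 83.3% and Dkk2 in 85, 68.7 and 66.9%. Macrophage barcodes (at least 1 UMI each of C1qa and Csf1r, median depth 5587, 2549 and 2254 UMIs), which should lack these genes, gave 0, 3.65 and 4.24%, 0, 1.04 and 2.54% and 0, 0.521 and 1.27% for the same 3 genes in turn. Without thinning the RM shares were 96.2, 98.6 and 97.6% for Rnase1 and 96.2, 91.4 and 92.5% for Lrp2. Crhbp was found in a smaller share, 75, 43.9 and 49.8% of RM barcodes at common depth, against 0, 0 and 0.424% of macrophage barcodes.

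The spread between members, set against counting noise, differed between genes. At common depth the variance of Crhbp over its mean was 8.73, 4.66 and 3.58, where counting noise alone gives about 1, and that of Rnase1, found in 95, 92.5 and 93.6% of members, was 7.18, 3.67 and 3.50. Lrp2 (1.95, 2.04 and 1.87), Cndp2 (2.12, 1.93 and 1.87) and Cnmd (1.52, 1.80 and 1.31) had lower ratios. The ratio depends on a gene's mean, so it does not rank genes of different abundance by evenness. Ttr varied widely, at 6.16, 7.84 and 4.39, and was found in 10.0, 16.7 and 16.7% of members. Crhbp and Ttr levels in the sums came from part of the members.

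Regulators of cell identity separated RM barcodes on both sides. Of 35 transcription factor genes of inner ear development listed for this work, 29 were tested, with a median log2 fold change of -0.22 beside -0.06 over all genes tested. Of these 13 were higher, 12 lower and 4 not called, beside 13.1% higher and 18.7% lower among all genes tested. The higher ones included 5 homeobox genes that were nearly absent elsewhere. Otx2 (chr14:48657677-48673819, minus strand) stood at 302, 202 and 197 CPM against 0.681, 2.14 and 1.74 CPM (log2 fold change 6.89 ± 0.23), and Otx1 at 116, 100.2 and 109 CPM against 1.36, 2.14 and 3.47 CPM (5.33 ± 0.23). Lmx1a, a LIM homeobox gene, stood at 220.4, 190.5 and 171 CPM against 1.36, 2.56 and 5.43 CPM (5.72 ± 0.21). Meis1 stood at 499, 348 and 392 CPM against 3.95, 8.85 and 8.86 CPM (5.66 ± 0.28), and Meis2, with the levels given above, differed by 4.89 ± 0.21. Pax2, a paired-box gene of the early otic epithelium, was scarcer at 58, 30.9 and 23.9 CPM against 0.272, 0.47 and 2 CPM (4.84 ± 0.39). Sox9 and Sox10, which other cochlear cells also express, were higher by 1.75 and 1.71, and the epithelial factor Grhl2 by 2.35.

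Other regulators were lower. Gata3 stood at 11.6, 152 and 109 CPM in RM barcodes against 712, 400.4 and 290.2 CPM (-1.97 ± 0.30), and Sox2, a marker of supporting cells, at 0, 20.9 and 9.56 CPM against 45.9, 67.1 and 52.2 CPM (-1.97 ± 0.27). Irx3, the Notch target Hes1, and Id2 and Id3, inhibitors of DNA binding, were also lower. Without the block the calls of Gata3 (edgeR adjusted p = 0.0718), Irx3 (0.0647), Hes1 (0.067) and Id3 (0.0907) were lost. At P14 the RM values of Gata3 and Sox2 rest on 1 and 0 UMIs.

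The 250 bases before the start of the genes that led the list were read from RefSeq (GRCm38.p6) and searched on both strands for TAATCC, the core letters bound by OTX-type bicoid factors, and for TGACAG, the MEIS core. Of 17 genes, the 15 leading ones and both genes of the rule, 12 had an entry. TAATCC was found in 2 of the 12, Vmo1 and Otx2, beside 7.21% of 27025 genes with an entry, and TGACAG in 1 of the 12, Cltrn, beside 17.95%. The 2 windows with TAATCC are shown since they belong to the rule's leading gene and to a higher OTX gene, in lower case on the gene's own strand with the match or its reverse complement GGATTA in capitals. They cover chr11:70514617-70514866 for Vmo1 and chr14:48665110-48665359, 1 of 4 starts listed, for Otx2, both on the minus strand.
Vmo1: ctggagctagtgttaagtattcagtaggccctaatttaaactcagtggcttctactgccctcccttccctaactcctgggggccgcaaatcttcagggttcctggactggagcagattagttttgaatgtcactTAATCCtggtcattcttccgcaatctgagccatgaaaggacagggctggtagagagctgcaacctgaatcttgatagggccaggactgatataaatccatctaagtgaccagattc
Otx2: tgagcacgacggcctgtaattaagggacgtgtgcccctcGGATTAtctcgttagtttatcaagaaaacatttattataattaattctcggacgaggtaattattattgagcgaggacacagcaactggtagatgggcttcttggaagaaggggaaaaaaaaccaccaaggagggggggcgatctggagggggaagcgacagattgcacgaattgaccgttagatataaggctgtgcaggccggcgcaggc
A match of 6 letters is a description of the sequence and not a binding site.

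All 3 subunits of the epithelial sodium channel were higher in RM barcodes, while the wider list of transport genes went both ways. Of 26 genes listed for sodium absorption and chloride transport, 22 were tested, with a median of -0.52 beside -0.06 over all genes. Of these 8 were higher, 9 lower and 5 not called, beside 13.1% higher and 18.7% lower among all genes. Scnn1a (chr6:125320659-125344943, plus strand), the alpha subunit, stood at 255, 89.4 and 95.6 CPM against 4.36, 4.96 and 4.85 CPM (log2 fold change 4.44 ± 0.22). Scnn1b (chr7:121865038-121918514, plus strand), the beta subunit, stood at 406, 255 and 212 CPM against 10.5, 13.9 and 11.9 CPM (4.34 ± 0.22), and Scnn1g (chr7:121734479-121768475, plus strand), the gamma subunit, at 69.6, 26.7 and 32.3 CPM against 2.18, 1.75 and 1.38 CPM (4.28 ± 0.36). In every library the UMIs fell in the order beta, alpha, gamma, and no RM value overlapped the other barcodes. At common depth Scnn1b was found in 35, 22.4 and 20.3% of RM barcodes and in 0, 0.521 and 0.424% of macrophage barcodes.

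Beta subunits of the sodium pump differed among themselves. Atp1b3, the beta3 subunit, was lower, at 46.4, 75.2 and 106 CPM against 127, 173 and 231 CPM (-1.21 ± 0.26). Atp1b2, the beta2 subunit, stood at 743, 624 and 525 CPM against 98.6, 131 and 152 CPM (2.18 ± 0.28). Atp1b1 was not called, at 998, 541 and 619 CPM against 494, 1033 and 1105 CPM (-0.41 ± 0.31, edgeR adjusted p = 0.346), but was called lower without the P14 library (-0.86). The purinergic receptor P2rx2 was higher by 1.25 ± 0.24, and this call was lost without P28 replicate 1 (log2 fold change 1.34, edgeR adjusted p = 0.0665) or replicate 2 (1.01, edgeR adjusted p = 0.155). The potassium channel genes Kcnj16 and Kcnma1 were lower, Kcnj16 not without the block (edgeR adjusted p = 0.0604).

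Anion and acid-base transporters were split. Of 14 genes listed 12 were tested, with a median of -0.42. Of these 5 were higher and 5 lower, beside 13.1% higher and 18.7% lower among all genes. Slc4a2, the anion exchanger AE2, stood at 128, 151 and 127 CPM against 34.7, 35.6 and 35 CPM (1.94 ± 0.19). Pendrin (Slc26a4), the study's marker of spindle and root cells, stood at 69.6, 128 and 112 CPM against 1.23, 22.4 and 46.8 CPM (2.04 ± 0.19), in 4, 102 and 72 members. The cytosolic carbonic anhydrases Car2 and Car3 were lower by log2 fold changes of -1.81 and -2.72, as were Car14 and the bicarbonate cotransporter Slc4a4. Trpv4, a calcium-permeable channel gated by osmotic and mechanical stimuli, was the 1 higher gene of 7 tested for calcium handling (2 lower, Calb1 and Slc8a1; 13.1% of all genes were higher), at 92.8, 61.8 and 53.8 CPM against 12.9, 8.5 and 10.1 CPM (2.66 ± 0.23). Trpv5 and Trpv6 were at 0 in all barcodes. Of the water channels, Aqp1 was higher (151, 40.9 and 25.1 CPM against 9.39, 15.9 and 17.5 CPM, 1.35 ± 0.25) and Aqp4 and Aqp11 were lower. Without the block the calls of Slc26a4 (edgeR adjusted p = 0.198), Slc4a4 (0.0584), Aqp1 (0.0846), Aqp4 (0.0735) and Aqp11 (0.0581) were lost. Aqp1 also lost its call with at least 10 UMIs in every sum (1.29, edgeR adjusted p = 0.157).

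Among 10 tested genes of the steroid response, 2 were higher, 3 lower and 5 not called, with a median of 0.09, beside 13.1% higher and 18.7% lower among all genes tested. Sgk1, a kinase induced by corticosteroids that keeps the sodium channel at the membrane, stood at 255, 293 and 335 CPM against 78.7, 86.2 and 97 CPM (1.68 ± 0.25), and the clock gene Per1 at 81.2, 74.3 and 80.1 CPM against 16.2, 29.1 and 34.7 CPM (1.36 ± 0.20). The glucocorticoid receptor Nr3c1, at 128, 57.6 and 66.9 CPM against 56.5, 79.4 and 93.2 CPM, was not called (-0.29 ± 0.22, edgeR adjusted p = 0.329), but was called lower without the P14 library (-0.45) and under the study's limits of 3000 genes and 15000 UMIs (-0.69, edgeR adjusted p = 0.00636). The mineralocorticoid receptor Nr3c2 was not called either (0.51 ± 0.25, edgeR adjusted p = 0.117), but was called higher under those limits (0.79, edgeR adjusted p = 0.0141) and without the marked doublets (0.64, edgeR adjusted p = 0.0451). Hsd11b2, which inactivates glucocorticoids in classical mineralocorticoid targets, was at 0 in RM barcodes and under 1 CPM in the others. The glucocorticoid targets Tsc22d3 and Klf9 were lower, and both calls were lost without P28 replicate 1 (edgeR adjusted p = 0.249 for Tsc22d3 and 0.643 for Klf9) or replicate 2 (0.0796 and 0.561).

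Junction and keratin genes were mostly higher. Of 28 genes 24 were tested, with a median of 1.21. Of these 15 were higher, 2 lower and 7 not called, beside 13.1% higher and 18.7% lower among all genes. Cldn8, a claudin of sodium-tight epithelia, stood at 499, 413 and 381 CPM against 20.3, 20.1 and 18.6 CPM (4.34 ± 0.27). Krt18 stood at 267, 182 and 159 CPM against 19.3, 13.8 and 11.1 CPM (3.73 ± 0.19), its partner Krt8 was higher by 2.92 and the desmosomal Dsp by 3.18. Cldn3 and Cldn4 were higher by 2.26 and 2.86, and E-cadherin (Cdh1) by 1.76. Epcam was higher by 1.37 ± 0.29, a call that was lost without P28 replicate 1 (1.18, edgeR adjusted p = 0.204) or replicate 2 (1.05, edgeR adjusted p = 0.218). The gap junction genes went the other way. Gjb2 stood at 0, 96.1 and 149 CPM in RM barcodes against 906, 612 and 559 CPM (-2.81 ± 0.32) and Gjb6 at 0, 71 and 118 CPM against 313, 340.2 and 318 CPM (-2.14 ± 0.29), both at 0 UMIs at P14. Neither Epcam (edgeR adjusted p = 0.268) nor Gjb6 (0.0713) was called without the block. The connexin gene Gja1 was at 0 in all RM barcodes, beside 1.91, 0.812 and 6.81 CPM in the others.

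Secreted and matrix genes were mostly lower than in all other barcodes. Of 33 tested 7 were higher and 22 lower, beside 13.1% and 18.7% of all genes, with a median of -1.41. The higher ones were Ttr, Wfdc2, Clu, Ptgds, Lamb1 and the basement membrane collagens Col4a3 and Col4a4. Col4a4 stood at 476, 70.2 and 81.3 CPM against 55.8, 15.1 and 24.1 CPM (2.19 ± 0.19). Clusterin (Clu) stood at 9154, 2294 and 2145 CPM against 1735, 699 and 756 CPM (1.75 ± 0.33) and was no longer called without P28 replicate 1 (1.75, edgeR adjusted p = 0.147) or replicate 2 (1.86, edgeR adjusted p = 0.108). Ptgds, which makes prostaglandin D2, stood at 3771, 3957 and 4774 CPM against 324, 1762 and 3353 CPM (1.58 ± 0.35). It lost its call without P28 replicate 1 (1.81, edgeR adjusted p = 0.174) or with at least 10 UMIs in every sum (1.30, edgeR adjusted p = 0.124). Tectorial membrane genes (Otog, Otogl, Tectb, Ceacam16), Igfbp5 and Apoe were lower. Of the genes named in this group Ttr alone kept its call without the block, with edgeR adjusted p from 0.0506 (Otog) to 0.422 (Col4a3) for the rest.

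**Figure D3:**
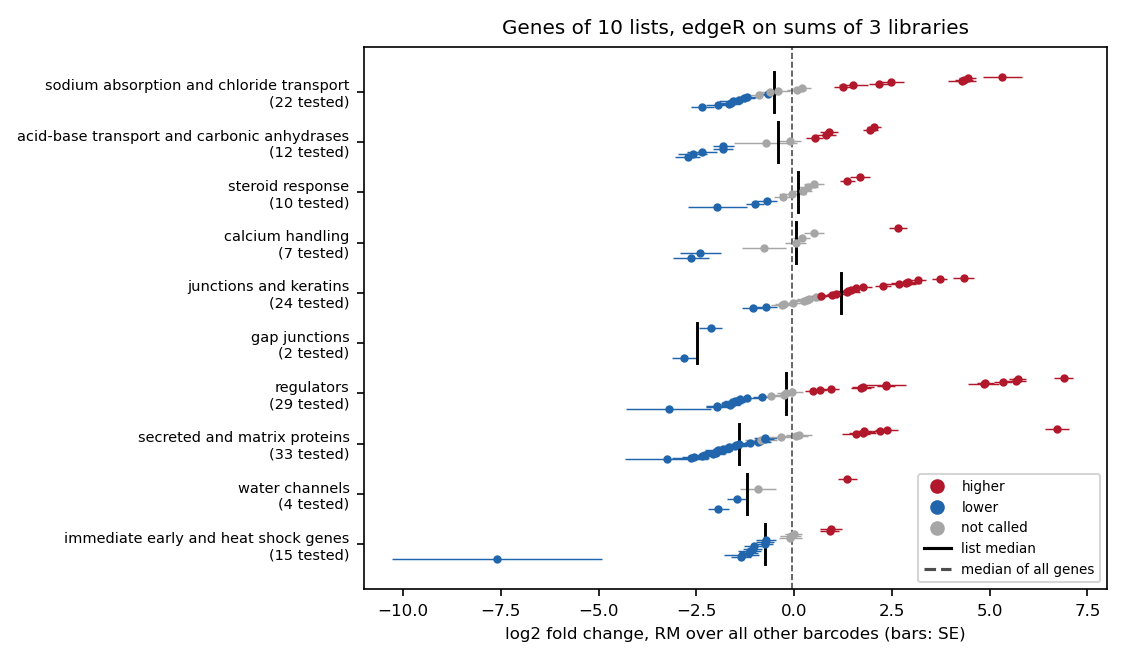
Log2 fold change with its standard error (horizontal) of each tested gene of 10 lists, RM over all other barcodes, red where higher, blue where lower and grey where not called. The junction and keratin median (black bar) lies at 1.21 and that of secreted and matrix genes at -1.41, beside -0.06 for all genes (dashed line), and the isolated point at the far left, Atf3, is at 0 UMIs in RM barcodes so that its value depends on the fit.

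Of 15 tested immediate early and heat shock genes, which respond to cell stress, 2 were higher and 10 lower, with a median of -0.76. Among all genes tested 13.1% were higher and 18.7% lower. Fos stood at 0, 34.2 and 14.3 CPM in RM barcodes against 10.1, 80.7 and 46 CPM (-1.36 ± 0.25), a call lost without P28 replicate 1 (-1.75, edgeR adjusted p = 0.0843) or replicate 2 (-1.28, edgeR adjusted p = 0.107). Hspa1a was higher by 0.91 ± 0.24 and lost its call without P28 replicate 1 (1.41, edgeR adjusted p = 0.107) or replicate 2 (0.91, edgeR adjusted p = 0.363). The 10 genes with the lowest fold changes were all at 0 UMIs in RM barcodes. They marked B lineage cells (Igkc, Cd79a, Vpreb3) and granulocytes (Retnlg), and also included Lhx3, Stmn4 and Mpped1. In the other barcodes Igkc stood at 74.5, 11.1 and 10.6 CPM and Cd79a at 54.3, 10.9 and 11.1 CPM, highest in the P14 library, while 3 UMIs over all RM barcodes correspond to 1.41 CPM.

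RM barcodes were then set beside 2 populations that also line fluid spaces. Barcodes with at least 1 UMI each of Aqp4 and Gjb2 (246, 488 and 420, median depth 6253, 6752.5 and 4126.5 UMIs) stood for nonsensory epithelium of the sulcus and Hensen side, and barcodes with at least 2 UMIs of Emilin2 (169, 1265 and 1723, median depth 2233, 2653 and 2570 UMIs), the study's marker of tympanic border cells under the basilar membrane, for a mesenchymal lining. Against Aqp4/Gjb2 barcodes 1572 of 10886 genes (14.4%) were higher and 1904 (17.5%) lower. Without P28 replicate 1 the counts were 589 and 688, without P28 replicate 2 777 and 982, and without the block 743 and 831. Against Emilin2 barcodes 2252 of 9674 genes (23.3%) were higher and 2308 (23.9%) lower. Without P28 replicate 1 the counts were 1142 and 1182, and without P28 replicate 2 1223 and 1310. All 3 comparisons share the RM barcodes, so their values are given side by side only.

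The sodium channel set RM apart from both. Scnn1b stood at 14.4, 24.3 and 23.4 CPM in Aqp4/Gjb2 barcodes and 3.49, 3.86 and 3.08 CPM in Emilin2 barcodes, and RM barcodes were higher by 3.34 ± 0.21 and 6.02 ± 0.17. For Scnn1a the differences were 3.40 ± 0.23 and 5.34 ± 0.26, and for Scnn1g 2.67 ± 0.36 and 5.74 ± 0.44. Atp1b2 was higher than in either by 3.03 and 1.71. Atp1b1 was lower than in Aqp4/Gjb2 barcodes (-0.89 ± 0.21) and higher than in Emilin2 barcodes (1.67 ± 0.19). The first of these calls was lost without P28 replicate 1 (-0.77, edgeR adjusted p = 0.358) or replicate 2 (-0.82, edgeR adjusted p = 0.0946), and also without the block (0.0863). Sgk1 was not called against Aqp4/Gjb2 barcodes, where it stood at 141, 179 and 214 CPM (0.42 ± 0.19, edgeR adjusted p = 0.103), though it was called higher without the P14 library (0.45, edgeR adjusted p = 0.000791), and was higher than in Emilin2 barcodes by 3.73 ± 0.13. Trpv4 was higher than in both, by 1.45 and 3.44, and Slc4a2 by 1.92 and 2.18.

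Of 24 junction and keratin genes, 10 were higher, 4 lower and 10 not called against Aqp4/Gjb2 barcodes (median 0.32). Of all genes 14.4% were higher and 17.5% lower there. Of 23 tested against Emilin2 barcodes 18 were higher and 2 lower (median 3.10), beside 23.3% and 23.9% of all genes. The median over all genes was -0.01 in both comparisons. Of the secreted and matrix genes, 16 of 32 tested were higher and 10 lower against Aqp4/Gjb2 barcodes (median 0.60). Against Emilin2 barcodes 7 of 29 tested were higher and 15 lower (median -0.77). Epcam stood at 802, 318 and 326 CPM in Aqp4/Gjb2 barcodes and was not called (0.09 ± 0.21, edgeR adjusted p = 0.809), though without the P14 library it was called higher in RM barcodes (0.33, edgeR adjusted p = 0.00966). Cldn8 was higher than in Aqp4/Gjb2 barcodes by 2.91 ± 0.19, Krt18 by 2.39 ± 0.18 and Dsp by 1.54 ± 0.19. Gjb6 (-3.91 ± 0.32) and Gata3 (-4.35 ± 0.30) were lower.

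The homeobox genes were higher than in both linings. UMI counts and CPM of RM barcodes here are over all members, while the tests left out members that also met the other rule. Otx2 had 433 UMIs in all RM barcodes and 3 in Aqp4/Gjb2 barcodes, and exceeded Emilin2 barcodes by 7.36 ± 0.23. Lmx1a was higher by 6.05 ± 0.30 and 6.54 ± 0.23, and Meis2 by 6.72 ± 0.35 and 4.99 ± 0.25. The genes with the largest excess over Aqp4/Gjb2 barcodes were led by Pcdh20 (731 UMIs against 3), followed by Atp13a5, Otx2, Cltrn, Crhbp, Cndp1, Dkk2 and Ttr. Over Emilin2 barcodes the lead was taken by Pi15 (150 UMIs against 0), with Crhbp, Rnase1 and Lrp2 among the next. Tnc, a matrix glycoprotein at 38.4, 64 and 65.5 CPM in Emilin2 barcodes, stood at 0, 9.19 and 0 CPM in all RM barcodes. Its 11 UMIs lay in 4 members of P28 replicate 1, with none in the other libraries. Among the members tested it was called lower (-6.91 ± 0.50).

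**Figure D4:**
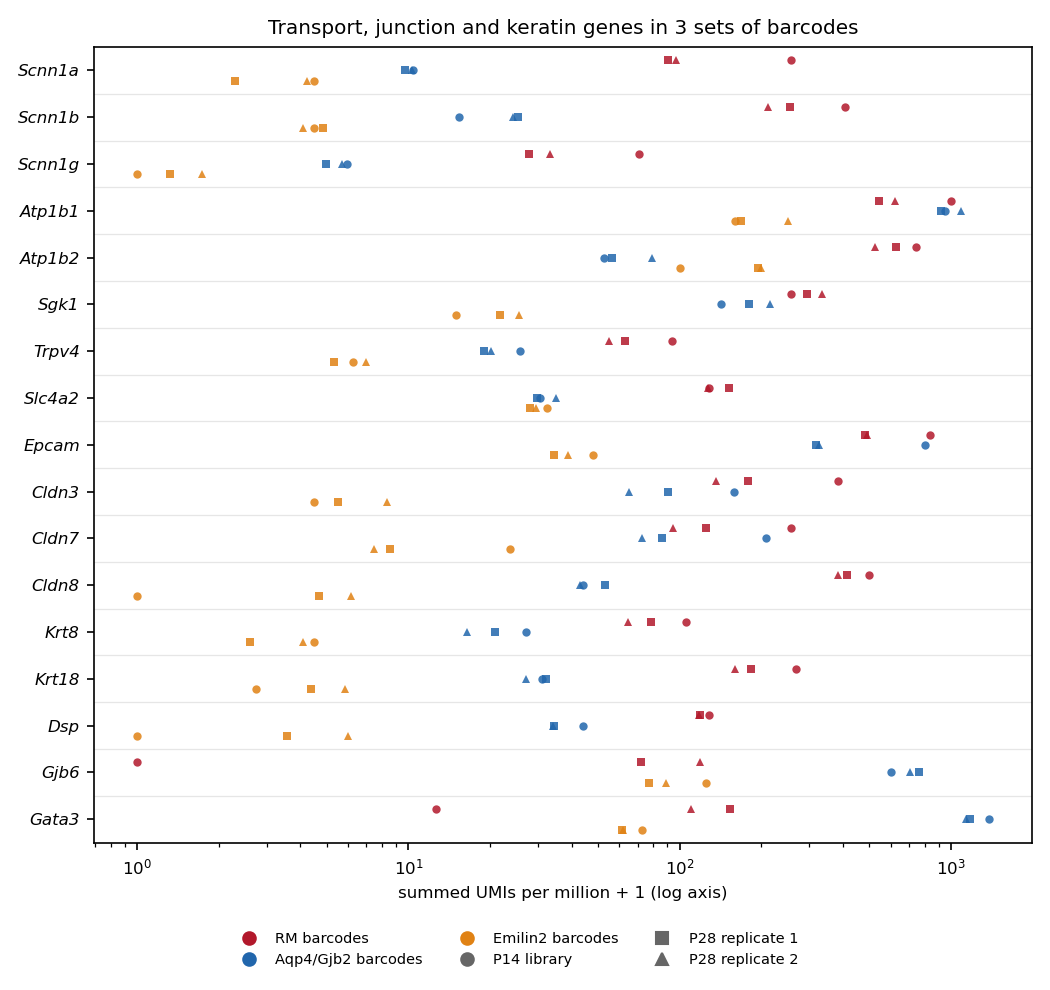
Summed CPM plus 1 (horizontal, log axis) of 17 transport, junction, keratin and comparison genes in RM barcodes (red), Aqp4/Gjb2 barcodes (blue) and Emilin2 barcodes (orange), with 1 symbol per library. The 3 RM values of each sodium channel subunit lie above all values of the other sets, while Epcam overlaps between RM and Aqp4/Gjb2 barcodes.

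For maturation from P14 to P28 there was 1 library at P14 with 26 RM barcodes, so no test was made. A gene was counted where the P14 level differed at least 2-fold from each P28 library (10 CPM added to each value), its exact Poisson 95% interval overlapped neither P28 interval, and the higher age reached 50 CPM. Of 4346 genes considered, 220 (5.06%) were higher and 122 (2.81%) lower at P14. Of these, 42 and 39 also differed at least 2-fold the same way in all other barcodes. When mt-, ribosomal and haemoglobin genes were left out of the totals, 144 genes were higher and 151 lower.

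Oc90 (chr15:65876053-65912397, minus strand), otoconin-90, the main matrix protein of the otoconia in the vestibule, showed the widest gap. It stood at 1334, 0.835 and 1.19 CPM in RM barcodes, found in 21 of 26 members at P14 and in 1 member of each P28 library. The other barcodes held 2.99, 0.128 and 0.089 CPM. Cltrn, with levels given above, was higher at P14 by log2 ratios of 2.89 and 3.12, with no such difference in the other barcodes (-0.02 and 0.01). Of the 15 genes with the largest excess over all other barcodes, Cltrn, Crhbp, Lrp2, Rnase1, Dkk2, Atp13a5 and 1810028F09Rik met the size rule as higher at P14, and the others, Ttr and Cndp1 among them, did not. Crhbp was higher by 2.05 and 1.98, Lrp2 by 1.31 and 1.20, Rnase1 by 1.25 and 1.48 and Dkk2 by 1.16 and 1.27, while in the other barcodes none of the 4 was higher at P14 by more than 0.13. Scnn1a was higher at P14 by 1.42 and 1.33, but Scnn1b (0.65 and 0.91) and Otx2 (0.55 and 0.59) did not meet the rule. The basement membrane genes Col4a3 (2.48 and 2.38), Col4a4 (2.60 and 2.41) and Sparc (2.86 and 2.94) were higher at P14 in RM barcodes and also in the others, at 1.48 and 1.38, 1.39 and 0.95 and 2.34 and 2.28.

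The genes with the widest gaps in the other direction were all more abundant in the other barcodes of the same library, at both ages. Itih5, Ebf1, Ceacam16, Emcn, Cp and Fxyd6 had 0 UMIs in the P14 members and were found in a minority of P28 members, Itih5 in 76 of 360 and 69 of 335. Ptn stood at 58, 1721 and 1755 CPM in RM barcodes and at 3094, 5226 and 5891 CPM in the others. Postn, by contrast, was counted as higher at P14 from 11 UMIs in 1 member. Sex-linked genes also differed between the libraries. Xist stood at 336, 0 and 2.39 CPM in RM barcodes and at 398, 0.256 and 0.267 CPM in the others, and the Y-linked Ddx3y at 11.6, 87.7 and 82.5 CPM in RM barcodes, so the sex of the pooled mice and their age cannot be told apart.

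**Figure D5:**
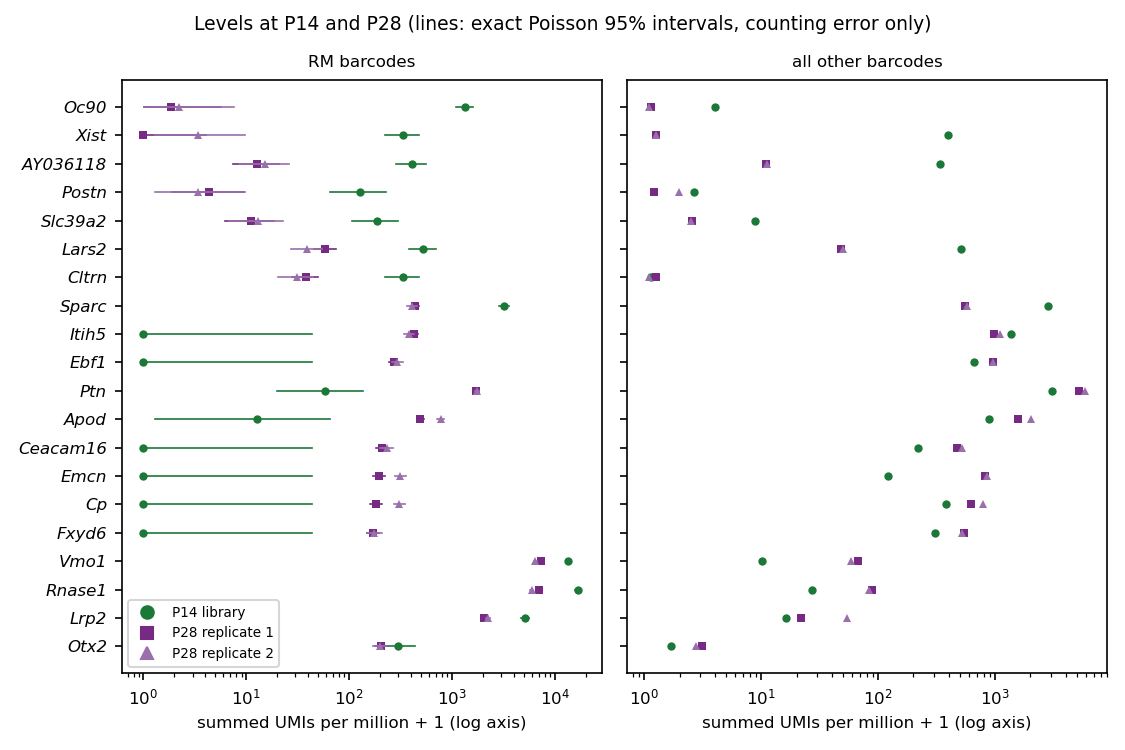
Summed CPM plus 1 (horizontal, log axis) at P14 (green) and in both P28 libraries (purple), in RM barcodes (left, lines are exact Poisson 95% intervals) and all other barcodes (right), for the 16 genes with the widest gaps and 4 leading RM genes. Oc90 is high only in the P14 RM barcodes among the sums shown, whereas Xist, Lars2 and Sparc differ by age in both panels.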

How the data were processed

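The authors aligned reads to mm10 with Cell Ranger (version 5.0.1 in the file headers, 6.0.1 in the submitters' processing notes) and deposited 1 matrix of UMI counts per library, with 32285 genes and no normalization. The study's limits (3000 genes, 15000 UMIs and 15% mt- UMIs at the upper end, 200 genes at the lower) leave 1400, 4829 and 6391 barcodes. No column was left unmapped (0), and all 256 listed genes were in the matrices.

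The members and the gene lists were chosen with earlier results of these data known. UMI counts were summed per library and set of barcodes and tested with edgeR 4.0.16 (glmQLFit and glmQLFTest, TMM, filterByExpr, library as block) in R 4.3.3, and SE is the absolute log2 fold change divided by the square root of F. edgeR's prior degrees of freedom were infinite against all other barcodes, 24.6 against Aqp4/Gjb2 barcodes and 11.4 against Emilin2 barcodes. The fits were also run on simulated counts with known changes and the same fixed spread for every gene. That run was a check of the code and not of the calls here. Both sums of a library come from the same pooled mice, which pairs them. Their deviations from the class means correlated at 0.240, 0.198 and 0.260 across genes in the comparison with all other barcodes. The values were 0.345, 0.253 and 0.340 against Aqp4/Gjb2 barcodes and 0.136, 0.149 and 0.124 against Emilin2 barcodes. The class means span both ages, so age shared by both sums enters these values too. With the block, p-values rest on how the difference between both sums of a library varied over the 3 libraries. These hold both ages, so age is part of that spread. Barcodes meeting 2 rules were left out of the tests of the narrower comparisons, while the levels given for RM barcodes are over all members.

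Named genes were those of the lists and marker sets, the 15 highest (10 in the narrower comparisons) and 10 lowest log2 fold changes with an adjusted p under 0.05, 3 of 3 libraries in 1 direction and at least 30 UMIs (5 per library) on the higher side, the 10 most abundant, and 8 each way by age. The text names part of these, chosen after their values and their stability under the alternatives were seen, which left out some listed genes whose sign or call changed and kept others. Some listed genes are not reported here. No doublets were removed. Scrublet marked 3, 0 and 1 barcodes and did not work here, so the top 5% of its scores served as an alternative. The alternatives were DESeq2 1.42.0, other filters, size factors and limits, left-out libraries and no block.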

Additional observations from a re-analysis of the deposited data

Results flagged for a closer look

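Barcodes outside the gene and mt- limits also carried both genes of the rule, a signal in data that the comparisons did not use. At P28 there were 240 of 6297 such barcodes in replicate 1 (3.81%, exact binomial 95% interval 3.35 to 4.31) and 258 of 11131 in replicate 2 (2.32%, 2.05 to 2.61). In replicate 1, 238 exceeded the mt- limit and 2 exceeded 6000 genes, and in replicate 2 all 258 exceeded the mt- limit. Their median mt- content was 23.3% and 22.2%, and their median depth 1031 and 868.5 UMIs. They held 6274 and 6305 CPM of Rnase1, 1944 and 2194 CPM of Lrp2, and 167 and 166 CPM of Otx2. At P14 only 3 of 851 barcodes outside the limits held both genes.

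Atp1b1, a sodium pump subunit, and Nr3c1, the glucocorticoid receptor, were higher in RM than in other barcodes at P14 (log2 ratios of 1.01 and 1.16) and lower in both P28 libraries. The difference between ages was not tested for either.

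Sparc, a matrix protein of basement membranes, was higher in RM than in other barcodes at P14 (log2 ratio 0.187) and lower in both P28 libraries. Its levels were 3225, 434 and 411 CPM in RM barcodes and 2832, 553 and 575 CPM in the others. The difference between ages was not tested.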

How the results depend on the processing

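All counts below are genes higher and then lower in RM barcodes, beside 1752 and 2501 against all other barcodes, 1572 and 1904 against Aqp4/Gjb2 barcodes, and 2252 and 2308 against Emilin2 barcodes. Without the library as a replicate block they were 651 and 368, 743 and 831, and 1713 and 1705. Against all other barcodes, the 651 and 368 were all among the 1752 and 2501. Of 73 genes named as called there, which were chosen after their stability was seen, 29 lost that call. Requiring 10 UMIs in every sum gave 368 and 335, 444 and 425, and 482 and 492, with fewer genes left to test, and only 54 of the 335 lower genes against all other barcodes were shared with the 2501. DESeq2 gave 910 and 1479, 829 and 1037, and 1322 and 1566, and lost the calls of Gjb2 and Hspa1a against all other barcodes. Leaving out 1 library gave 550 to 2456 higher and 695 to 3068 lower genes against all other barcodes, 589 to 2193 and 688 to 2355 against Aqp4/Gjb2 barcodes, and 1142 to 3000 and 1182 to 3203 against Emilin2 barcodes, highest without the P14 library each time.

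RLE size factors shifted the median log2 fold change of all genes against all other barcodes from -0.06 to -0.17, and gave 1525 and 3118 calls. Wider or tighter limits on genes, mt- content, UMIs of the rule, thinning, marked doublets, robust spread (added after seeing the data) and other barcodes with 0 UMIs of both genes gave 1553 to 1881 higher and 2288 to 2624 lower genes against all other barcodes, and no filter on low counts 1764 and 2713. The named genes were chosen after their stability was seen, so their sign changes do not measure stability over all genes. Of 77 genes named in that comparison 2 changed sign, neither of them called: Atp1b1 turned to 0.26 under the study's limits on genes and UMIs, and Nr3c1 ran from -0.45 to 0.0042 with 1 library left out. Epcam against Aqp4/Gjb2 barcodes, not called either, turned to -0.12 without the replicate block and ran from -0.094 to 0.33 with 1 library left out (-0.05 without P28 replicate 1). Gjb6 against Emilin2 barcodes ran from -0.78 to 0.10. The cause of these changes was not tested.

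The size rule between ages gave 144 genes higher at P14 without mt-, ribosomal and haemoglobin genes (220 with them), and 78 lower under the study's limits on genes and UMIs and 73 lower after thinning (122 otherwise). With 1 P28 library left out, 279 to 289 were higher and 170 to 175 lower. The share of RM barcodes at P28 rose to 6.88% and 5.13% under the study's limits on genes and UMIs, and fell to 5.46% and 3.73% with mt- genes up to 30%, to 4.76% and 3.31% with at least 2 UMIs of both genes, and to 4.80% and 3.64% after thinning to 1000 UMIs. At P14 every alternative share stayed within the main interval. Depth limits the P14 members most: 3 UMIs correspond to 34.8 CPM there, so a gene at 0 at P14 may still be expressed below that level.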
